A study of Homo sapiens with 3 samples.

Results

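Intermediate filament and nuclear lamina genes were followed in A375, an established human melanoma line, through loss and return of anchorage. The set held 10 genes, taken by platform gene symbol, of the 20046 genes that the arrays named: the keratins KRT8, KRT80, KRT9, KRT14 and KRT18, vimentin (VIM), nestin (NES), and the lamins LMNA, LMNB1 and LMNB2. They were read by 14 probes. Total RNA from 3 states was hybridised to Illumina arrays, 1 array per state. Adherent cells had never been suspended, suspended cells were derived from them by plating on sterile plastic dishes, and reattached cells were suspended cells put back on culture dishes in fresh medium for 1 day. All 3 states shared DMEM medium with 10% FBS and the antibiotics penicillin (100 units/ml) and streptomycin (100 ug/ml). The sources used here give neither the time spent in suspension nor the number of cultures behind each RNA. With 1 array per state there was no spread between replicates, so every difference is a difference between single arrays, without a test.

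Intermediate filaments are rope-like polymers that give cells and nuclei mechanical strength. Keratins form filaments only as pairs of a type I and a type II chain, and they anchor to desmosomes and hemidesmosomes in epithelia. Vimentin, a type III protein, is the main filament of mesenchymal cells and of most melanoma cells. Nestin is a type IV protein of neural and neural crest progenitors, and the lamins line the inner nuclear membrane.

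The detected keratins of the set differed between the states and the rest of the set hardly did. These 4 keratins had their lowest level in suspension and a higher level again after reattachment. KRT80 was 3.71-fold lower in suspended than in adherent cells and KRT9 2.32-fold lower. KRT14 and KRT8, which were not detected in suspension, were at least 1.99-fold and at least 1.92-fold lower with the main processing. With the authors' deposited values, KRT80, KRT9, KRT14 and KRT8 stood at -1.82, -0.82, -0.59 and -0.56 on the log2 scale. Vimentin, nestin and the 3 lamins stayed within 0.27 of the adherent level on the log2 scale with the probe used for each gene. The type I keratin KRT18, the usual partner of KRT8, was not detected on any array. Outside the set, 4 other keratins were detected on at least 1 array. Among them KRT10, brighter than KRT9, KRT14 and KRT8, did not share the dip. Its log2 differences were -0.06 in suspended minus adherent and -0.07 in reattached minus suspended.

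Each array carried 47323 probes, of which between 35.6% and 37.5% were detected, at a detection p-value under 0.01. Undetected probes had a median scanner signal of 50.9 in adherent, 53.3 in suspended and 51.0 in reattached cells. Detection on at least 1 array held for 9 of the 10 genes, and on all 3 for 7, against 11062 and 9984 of the genes named by the platform. The melanoma markers MITF, SOX10, S100A1 and GPNMB were detected on all 3 arrays, 4 of the 9 melanocyte markers on the platform, while PMEL, MLANA, TYR, TYRP1 and S100B were not detected on any. The summed scanner signal of those 4, not normalized between arrays, was 3886 in adherent, 5964 in suspended and 4311 in reattached cells. After normalization, suspended minus adherent was 0.23 for MITF, 0.44 for SOX10, 0.64 for GPNMB and 0.78 for S100A1 on the log2 scale. Whether these differences bear on the keratin values was not tested. Of 12 keratinocyte and epithelial markers, 10 were on the platform, and 0 of them were detected on any array, among them EPCAM, CDH1, KRT5 and KRT19. Of the fibroblast markers 4 of 9 were detected, LUM, DCN, PDGFRB and PDGFRA, with a summed signal of 506 in adherent, 503 in suspended and 481 in reattached cells. Detection held for 1 of 5 endothelial and 2 of 5 leukocyte markers. PECAM1 and CD14 were near background, at 69.2 and 79.1 in adherent cells. LYZ was brighter, at 156, 159 and 158 in adherent, suspended and reattached cells.

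Genome positions are those of the RefSeq annotation of GRCh38.p14. The type II genes KRT80 (chr12:52168996-52192014) and KRT8 (chr12:52897191-52949860) lie in the keratin cluster of chromosome 12, where the type I gene KRT18 (chr12:52948855-52952906) also sits, overlapping the annotated span of KRT8 by 1006 bases. KRT9 (chr17:41565836-41572059) and KRT14 (chr17:41582279-41586895) are type I genes of the cluster on chromosome 17, 10219 bases apart. VIM lies at chr10:17228241-17237593, NES at chr1:156668763-156677407, LMNA at chr1:156082573-156140081, LMNB1 at chr5:126776623-126837020 and LMNB2 at chr19:2428166-2456959.

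The promoter sequences of a pair of keratins that were lower in suspension, and of VIM, which was not, are shown so that they can be read side by side. They are the 250 bases before the start of a transcript in RefSeq (GRCh38.p14), 5′ to 3′ on the strand of the gene, and capitals mark a GC box (GGGCGG on either strand), the site of Sp1-like factors. KRT8 lies on the minus strand (chr12:52926470-52926719), KRT9 on the minus strand (chr17:41572060-41572309) and VIM on the plus strand (chr10:17227991-17228240). The KRT9 and VIM windows adjoin the outer ends of their genes. The KRT8 window lies inside the annotated span of KRT8, before an internal start, and does not show the sequence at the outer end of that gene.
KRT8: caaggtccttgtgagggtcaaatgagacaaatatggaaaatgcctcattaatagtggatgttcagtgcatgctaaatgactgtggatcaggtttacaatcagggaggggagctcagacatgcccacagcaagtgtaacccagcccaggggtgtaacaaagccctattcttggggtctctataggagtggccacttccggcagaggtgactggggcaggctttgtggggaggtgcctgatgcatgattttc
KRT9: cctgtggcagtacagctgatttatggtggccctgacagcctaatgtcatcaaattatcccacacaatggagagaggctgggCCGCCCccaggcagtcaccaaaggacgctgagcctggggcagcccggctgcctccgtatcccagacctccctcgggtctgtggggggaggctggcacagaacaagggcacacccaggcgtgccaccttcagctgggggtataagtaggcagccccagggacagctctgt
VIM: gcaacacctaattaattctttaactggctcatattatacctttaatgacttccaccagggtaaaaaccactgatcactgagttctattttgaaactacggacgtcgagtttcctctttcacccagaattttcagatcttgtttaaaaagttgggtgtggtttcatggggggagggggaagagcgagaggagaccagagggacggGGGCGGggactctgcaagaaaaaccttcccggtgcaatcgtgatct

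In these windows 4 motifs were searched on both strands: the AP-1 motif TGANTCA, the TEAD motif GGAATG, the TATA motif TATAAA and the GC box, none of which overlaps another here. RefSeq windows were found for 7 of the 10 genes, KRT8, KRT9, VIM, NES, LMNA, LMNB1 and LMNB2, but not for KRT80, KRT14 and KRT18. These genes have 10 windows, LMNA with 3 and LMNB1 with 2. The AP-1, TEAD and TATA letters occurred in 0 of the 10, against 6.57%, 11.9% and 10.7% of all 35116 promoter windows of the same length. A GC box stood 169 bases before the start in KRT9 and 46 bases before it in VIM, and 42.6% of all windows held at least 1. The KRT8 window, which lies before an internal start, held 0 GC boxes and 1 CpG. The KRT9 window held 6 CpG and the VIM and NES windows 8 each. The LMNA windows held 21, 23 and 18, the LMNB1 windows 10 and 29, and the LMNB2 window 30. CpG were not counted over all promoter windows. These are counts of letters and not measurements of binding.

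KRT80, a type II keratin of differentiated epithelia, had the largest difference of the set. The scanner signal of its brighter probe was 2904 in adherent, 884 in suspended and 1668 in reattached cells, and that of its second probe 482, 189.7 and 346. Both probes were detected on all 3 arrays, and on both the adherent array was highest and the suspended array lowest. After background correction and quantile normalization, the brighter probe stood at log2 levels of 11.51, 9.62 and 10.77. Suspended minus adherent was -1.89 with this probe and -1.67 with the second, both on the log2 scale. Of the 10991 genes compared, 14 were as low or lower, KRT80 included. In bulk RNA, fewer cells that express KRT80 and less KRT80 RNA per cell cannot be told apart.

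KRT9 is a type I keratin known from the thick skin of palms and soles. Its probe gave scanner signals of 142.7 in adherent, 86.7 in suspended and 123 in reattached cells, between 1.63 and 2.80 times the median of undetected probes. It was detected on each array, at a detection p-value of 0.0039 in suspension, and the suspended array was again the lowest. Suspended minus adherent was -1.21 on the log2 scale. Such dim signals carry less weight than those of KRT80. Among the 3737 compared genes with a mean log2 level under 7, KRT9 among them, 1.02% were at least 2-fold lower in suspension, against 0.655% of all genes.

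KRT14, a type I keratin of basal keratinocytes, gave scanner signals of 104 in adherent, 70.1 in suspended and 90.7 in reattached cells. KRT8, a type II keratin of simple epithelia, gave 102, 61.5 and 76.7. Both were detected in adherent and reattached cells and were not detected in suspension, with detection p-values of 0.0130 for KRT14 and 0.0844 for KRT8. Their fold differences against suspension are therefore bounds, set against the dimmest detected probe of the suspended array. The difference of the measured log2 levels, without that bound, was -1.11 for KRT14 and -1.38 for KRT8. KRT8 has many processed pseudogenes and KRT14 close paralogs, and whether these probes also read them was not tested.

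The 2 probes of KRT18 gave scanner signals of 56.4, 56.2 and 55.9, and of 54.5, 54.2 and 57.6, in adherent, suspended and reattached cells. Their detection p-values ran from 0.105 to 0.358, so KRT18 was not above background and no fold is given for it.

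**Figure D1:**
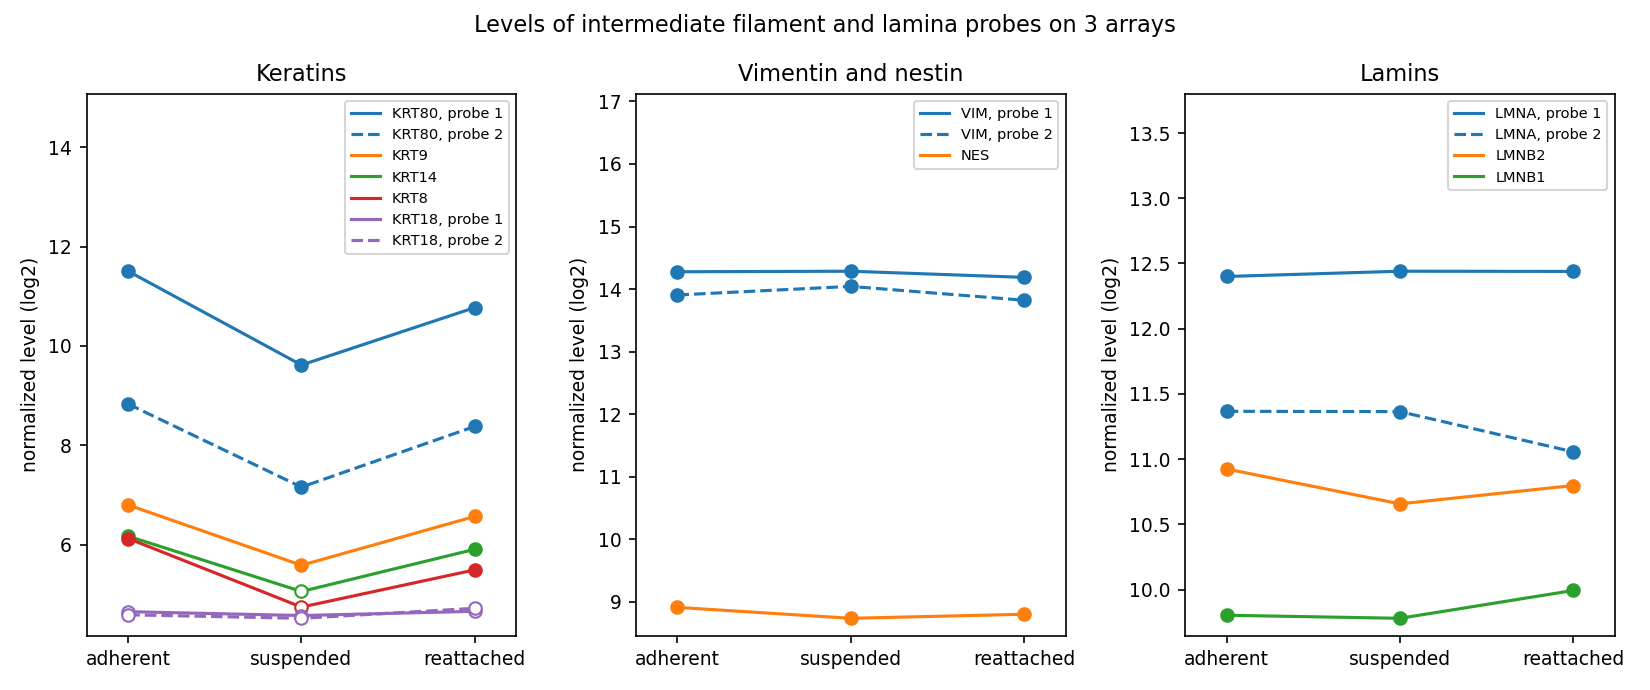
Normalized log2 level of each of the 14 probes (vertical axes, on a scale of its own in each panel) in adherent, suspended and reattached cells (horizontal axes), 1 array each; filled points were detected, open points were not, and dashed lines are the dimmer probe of a gene. The probes of KRT80, KRT9, KRT14 and KRT8 dip in suspension, both KRT18 probes stay undetected, and the vimentin, nestin and lamin lines run nearly level.

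Set against the background of all genes, 2 of the 9 detected members, KRT80 and KRT9, were at least 2-fold lower in suspended than in adherent cells, where 0.655% of the 10991 compared genes were. At 1.5-fold the lower members were 4 of 9, all keratins, against 2.23% of the compared genes. KRT8 lost this call, at -0.56 on the log2 scale, with the background left in, with neqc offset 50 and with the authors' deposited values, which left 3. No member was 1.5-fold higher. The median difference of the 9 members was -0.27 on the log2 scale, with 0.00 over all genes. The members were chosen with earlier results of these data known. Their shares beside those of all genes, here and in the other comparisons, therefore describe the set and do not test it. The shares of all genes are also not matched for level, and KRT9, KRT14 and KRT8 have a mean log2 level under 7. Among compared genes that dim, 1.02% were at least 2-fold lower in suspension. KRT14 and KRT8 entered this comparison through their detection in adherent cells alone, which favours bounds below 0, and they lay just short of 2-fold. Without a detection filter, or with detection at a p-value under 0.05, they passed it and the count was 4. Under cyclic loess KRT14 passed it and the count was 3. With the background left in, offset 50 or the authors' values, KRT80 alone passed.

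After 1 day of reattachment the 4 detected keratins of the set were higher than in suspension. KRT80 was 2.23-fold higher than in suspended cells with the brighter probe, and the log2 differences were 1.16 and 1.22 with its 2 probes. Of 10715 genes compared, 11 were as high or higher, KRT80 included. KRT9 was 1.98-fold higher and ranked among the 26 highest. KRT14 was at least 1.66-fold higher and KRT8 at least 1.24-fold higher with the main processing. At 2-fold, 1 member was higher (0.205% of all genes), and at 1.5-fold 3 were (0.821% of all genes), with 0 lower at either fold. The 3 became 2 with the background left in, with offset 50 and with the authors' values, where KRT14 stood at 0.42 on the log2 scale. They became 4 with detection at a p-value under 0.05 and without a detection filter. KRT14 and KRT8 entered this comparison through their detection in reattached cells alone, which favours bounds above 0.

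**Figure D2:**
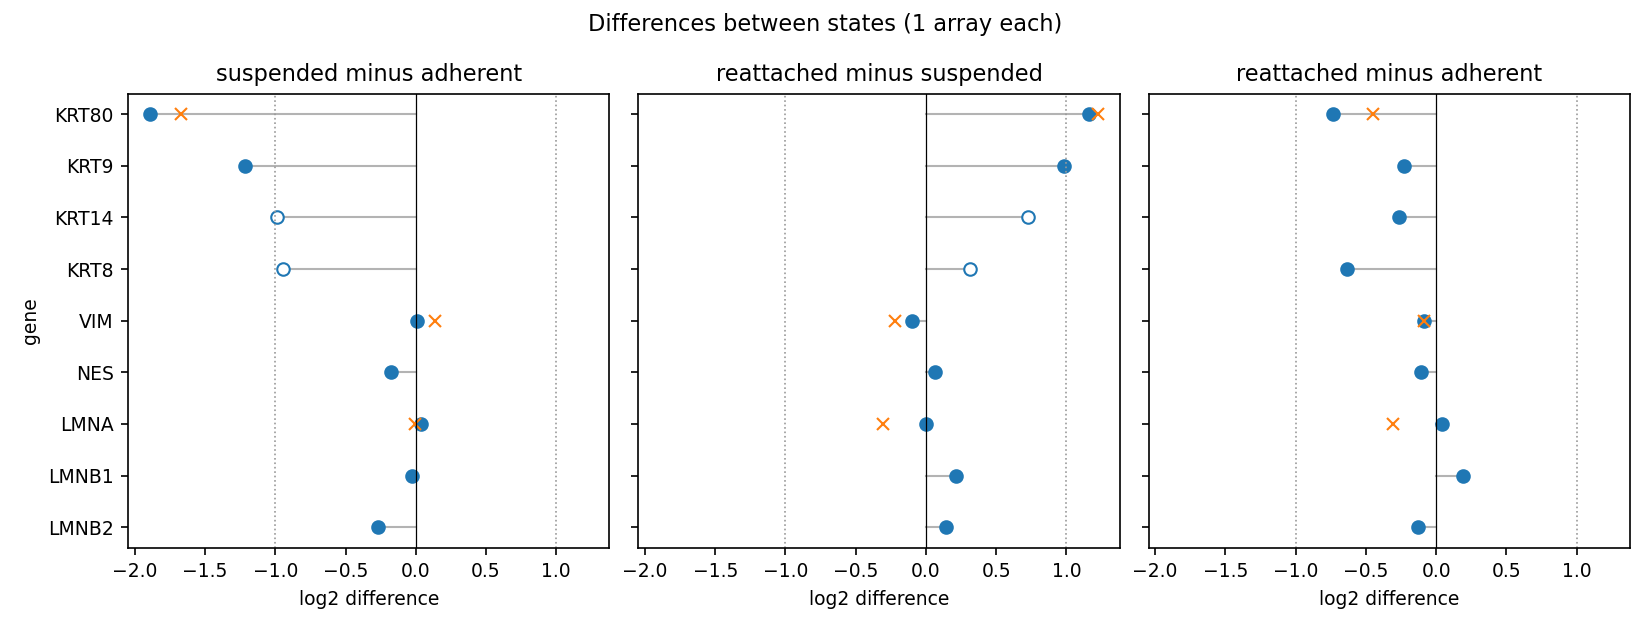
Log2 difference (horizontal axes) of each detected member gene (vertical axis) in the 3 comparisons, from 1 array per state; filled points are measured on both arrays, open points are bounds because a side was not detected, crosses are the second probe of a gene, and dotted lines mark 2-fold. The keratin points lie to the left in suspended minus adherent and to the right in reattached minus suspended, and no point passes 2-fold in reattached minus adherent.

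After reattachment the 4 keratins still lay below the level of cells that had never been suspended, with a median log2 difference of -0.45. KRT80 was 1.66-fold lower, with log2 differences of -0.73 and -0.45 by probe, and KRT8 was 1.55-fold lower, with KRT8 detected on both arrays. These 2 of 9 members were past 1.5-fold, against 1.10% of 10821 genes, and at 2-fold there were 0, against 0.102%. With the background left in, neqc offset 50 or the authors' deposited values, KRT8 was no longer past 1.5-fold. KRT14 and KRT9 stood closer to the adherent level, at -0.26 and -0.23. On the log2 scale KRT9 had regained 81.0% of its difference, and KRT80 61.2% and 73.1% by probe. This comparison shares the adherent array with suspended minus adherent, and the reattached array with the other, so the 3 comparisons are not separate evidence.

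Among the 9984 genes detected on all 3 arrays, 1.88% had the order adherent, reattached, suspended from high to low with a span of at least 1.5-fold. KRT80 and KRT9 did, 2 of the 7 members detected on all 3 arrays. NES and LMNB2 had the same order with spans of 0.17 and 0.27 on the log2 scale, and VIM, LMNA and LMNB1 had another.

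**Figure D3:**
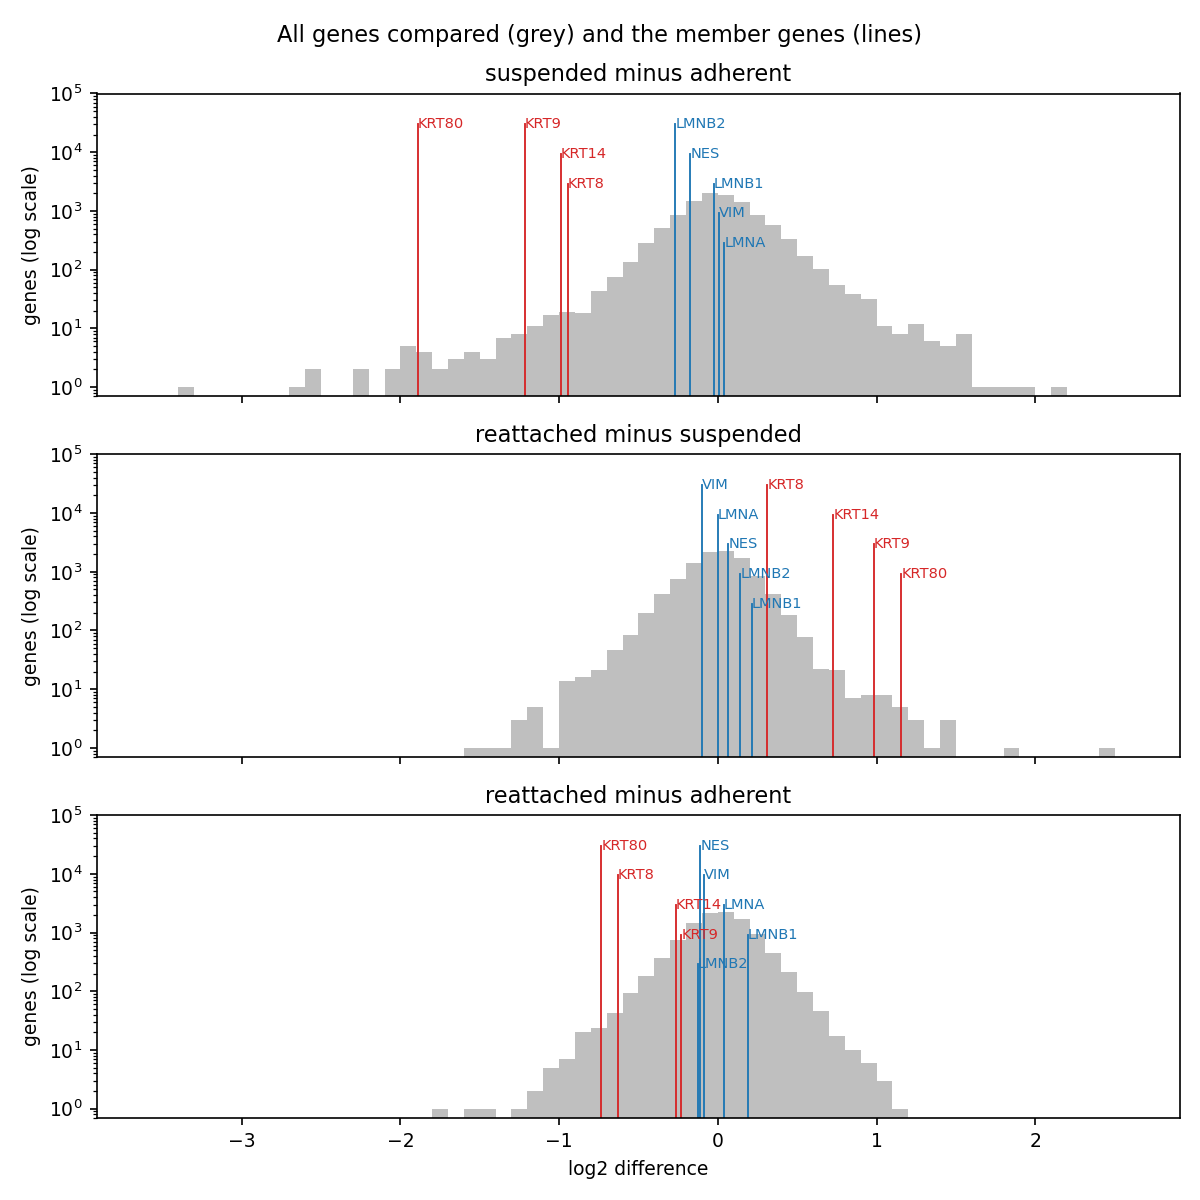
Histograms of the log2 differences of all compared genes (grey, counts on a log axis) in the 3 comparisons, with lines at the keratin members (red) and the other members (blue), KRT14 and KRT8 at their bounds where suspended cells enter. KRT80, at -1.89 and 1.16 in the upper panels, lies in the sparse tails, while the vimentin, nestin and lamin lines stand in the bulk of the genes.

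Vimentin gave the brightest signals of the set. Its probes read 19957, 21405 and 17539, and 15319, 17926 and 13592, in adherent, suspended and reattached cells. In the scanner signals the suspended array was highest with both probes. After normalization, suspended minus adherent was 0.01 and 0.14, reattached minus suspended -0.10 and -0.22, and reattached minus adherent -0.09 and -0.08 on the log2 scale. Among the 2593 genes with 2 or more probes detected on all 3 arrays, the first and second probe differed by a median of 0.16 in suspended minus adherent, so these differences are of the size by which probes of a gene disagree.

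Nestin gave scanner signals of 508 in adherent, 497 in suspended and 449.5 in reattached cells, a narrow range. Its log2 differences were -0.17 in suspended minus adherent, 0.06 in reattached minus suspended and -0.11 in reattached minus adherent. Of all genes, 21.4% were as low or lower in the first comparison, so nestin did not stand out from the bulk.

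LMNA encodes the A-type lamins A and C by alternative splicing. Its brighter probe read 5427, 5991 and 5216 in adherent, suspended and reattached cells, and its second probe 2644, 2866 and 2021. Suspended minus adherent was 0.04 and -0.002 on the log2 scale, a close match between the probes. They parted after reattachment, where reattached minus adherent was 0.04 with the brighter probe and -0.31 with the second. The platform table gives both probes the same transcript record, and which of the spliced forms each reads is not stated there. The median gap between probes of a gene was 0.17 in that comparison, and the 90th percentile 0.44.

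LMNB1 and LMNB2 encode the B-type lamins, which stay attached to the membrane by a farnesyl group. LMNB1 read 911 in adherent, 985 in suspended and 988 in reattached cells, and LMNB2 1938, 1775 and 1697. LMNB1 differed by -0.02 in suspension and was 0.19 above the adherent level after reattachment, on the log2 scale, and LMNB2 differed by -0.27 and -0.13. Under median scaling, which moved the median of all genes to 0.10 in suspended minus adherent, LMNB1 stood at 0.10, so its sign is not settled. The same scaling also turned the sign of NES (-0.09) and LMNB2 (-0.002) in reattached minus suspended, where it moved the median of all genes to -0.12, and of LMNA (-0.01) in reattached minus adherent. LMNB1 levels often follow proliferation. Of 10 proliferation genes, 8 were below 0 in suspension with a median of -0.25, led by PLK1 (-0.36), MCM6 (-0.32) and TK1 (-0.30), and 9 were above 0 in reattached minus suspended with a median of 0.21. None passed 1.5-fold, and the part of this shift in the lamin values was not tested.

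Few other keratins were measured. Of 49 other keratin genes, 43 were on the platform and 4 were detected on at least 1 array. KRT10, a type I keratin of the upper epidermis, read 2118, 2231 and 1861 in adherent, suspended and reattached cells and differed by -0.06 in suspension on the log2 scale. KRT15 (-0.09), KRT12 (a bound at 0.07) and the type II keratin KRT7 (a bound at -0.37) had signals of at most 80.2 on each array, near background. Among the keratins with a probe named by 1 gene symbol, KRT80, KRT8 and KRT7 were thus the type II keratins detected. Keratins without such a probe were not assessed. Of the other type III, type IV and lens filament genes, 4 of 10 were detected, NEFL (0.22), BFSP1 (0.18), SYNM (0.17) and NEFH (0.06, a bound), all above 0 in suspension by less than 1.5-fold.

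Linkers that tie filaments to membrane junctions were mixed. Of 16 plakin, desmosome and hemidesmosome genes, 9 were measured, 5 above 0 and 4 below 0 in suspension, with a median log2 difference of 0.07. ITGB4, the integrin chain to which keratins are anchored in hemidesmosomes, read 117 in adherent, 60.4 in suspended and 78.0 in reattached cells. It was not detected in suspension and was at least 2.36-fold lower there with the main processing. It was also 1.83-fold lower in reattached than in adherent cells. It was 1 of the 9 measured genes of this list past 1.5-fold in suspended minus adherent, where 2.23% of all compared genes were 1.5-fold lower. Like KRT14 and KRT8, ITGB4 entered this comparison through its detection in adherent cells alone, which favours a bound below 0. The desmosomal plakophilin PKP2 (-0.41, a bound) was lower and the plakin DST, dystonin, was higher (0.40) in suspension, both by less than 1.5-fold. Plectin, the plakin PLEC that binds keratin and vimentin alike, differed by 0.07.

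Genes of the nuclear envelope stayed near their adherent level, as the lamins did. Of 18 lamina-associated and LINC complex genes, which bind lamins or couple them to the cytoskeleton, 15 were measured, with 8 above 0, 7 below 0 and a median of 0.02 in suspension. The largest differences were those of the inner membrane protein TMEM201 (0.49), the torsin cofactor TOR1AIP2 (0.26) and the lamin B receptor LBR (-0.19). For TOR1AIP2 the 2 other detected probes stood at 0.06 and -0.16, so its difference is not settled. SUN1 (-0.18), SUN2 (0.02), SYNE2 (0.06) and emerin, EMD (-0.18), were smaller. Lamin processing enzymes had a median of -0.07 over 5 of 5 genes. In suspension the carboxyl methyltransferase ICMT stood at -0.39, the prelamin A protease ZMPSTE24 at 0.33 and the farnesyltransferase subunit FNTA at -0.12. No gene of either list passed 1.5-fold in any of the 3 comparisons.

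**Figure D4:**
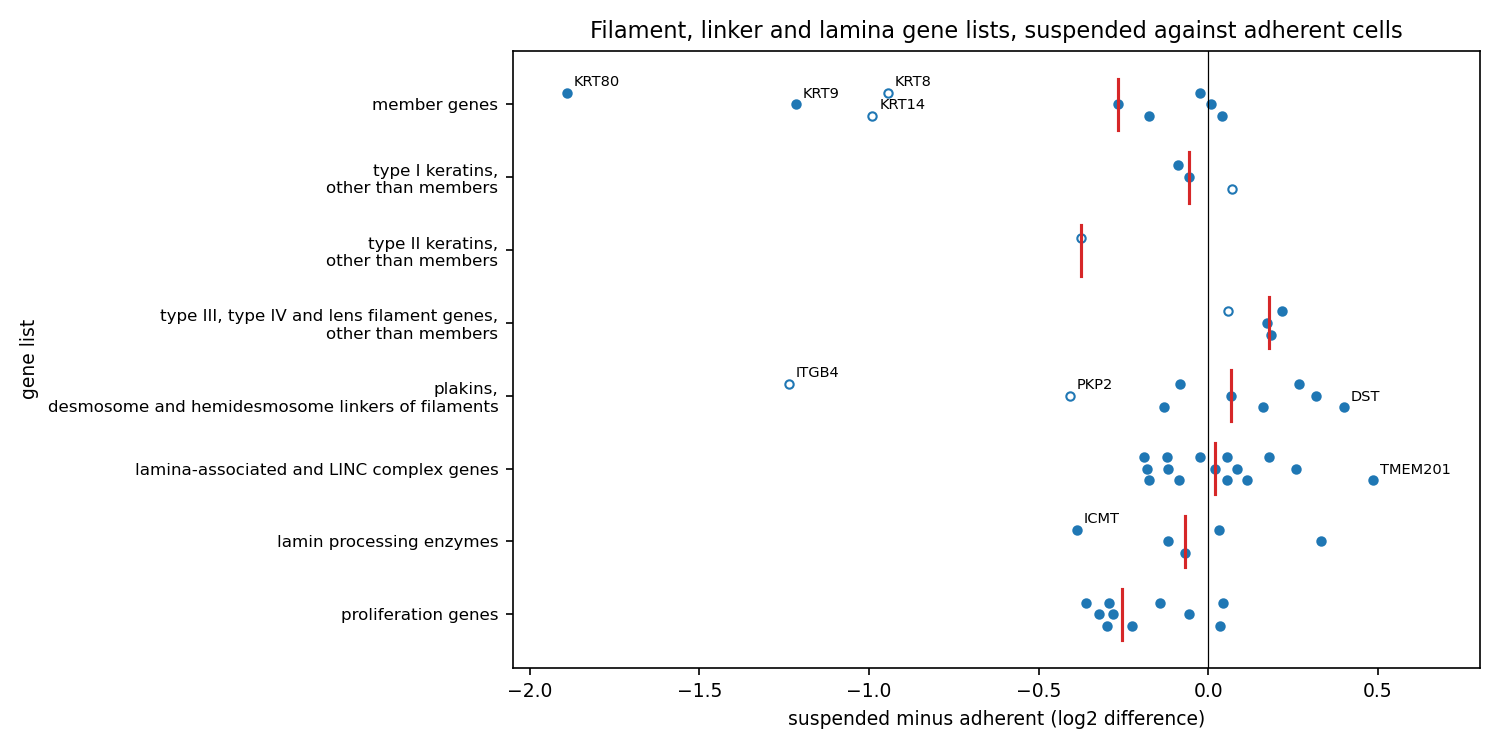
Suspended minus adherent log2 difference (horizontal axis) of each measured gene in the member set and 7 context lists (vertical axis), from 1 array per state; open points are bounds, red bars the median of each list. KRT80, KRT9, KRT14 and KRT8 lie at or below -0.94 together with ITGB4 of the linkers, and every other point lies between -0.41 and 0.49.

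As a description over 3 arrays, the genes nearest to KRT80 by the Euclidean distance of suspended minus adherent and reattached minus adherent, among 9871 genes, were SPANXB1 (distance 0.05), SPANXC (0.10) and SUSD2 (0.13). The 9871 are the genes detected on all 3 arrays without the member itself and without provisional symbols (LOC, Hs., KIAA, FLJ, MGC and orf names). SPANXB1 and SPANXC belong to a family of near-identical cancer-testis genes, so their probes may read each other. Nearest to KRT9 were the olfactomedin-like gene OLFML2A (0.14), the collagen gene COL5A1 (0.17) and the signalling regulator RGS7 (0.17). SUSD2 differed by -1.86 in suspension and -0.86 after reattachment, and COL5A1 by -1.07 and -0.14, both against adherent cells on the log2 scale.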

How the data were processed

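Per the file headers, each array has a signal intensity and a detection p-value for each probe in the deposited scanner table, and these intensity values were not normalized between arrays. In the authors' other table the intensity values have nearly equal distributions on the 3 arrays, by a normalization not given in the sources used here. Per the labels' protocols, RNA was extracted with Trizol and labelled with an Ambion kit.

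The scanner table was background-corrected and quantile-normalized in R 4.3.3 by the neqc function of limma 3.58.1, with an offset of 16, on the log2 scale. Python 3.11.15 with pandas 2.3.3 did the rest. Of 47323 probes, 30113 had 1 gene symbol in the platform annotation. A gene is called on the platform when it has such a probe. A gene was represented by its detected probe (p-value under 0.01) with the highest mean level. It was compared when detected on at least 1 of the 2 arrays, and an undetected value below the dimmest detected probe of its array was set to that probe's level, which makes the difference a bound. The offset shrinks differences of dim genes.

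No test was run, since each state had 1 array. Counts at 2-fold and 1.5-fold and medians are given beside those of all genes. The members and the 7 context lists were chosen with earlier results of these data known. Named genes are every member, up to 3 of each list with the largest suspended minus adherent difference and the 3 genes nearest to a member. KRT9 and KRT80, the members detected on all 3 arrays that span 1.5-fold, had these. PLEC, CD151, SUN1, SUN2, SYNE2, EMD, NEFH and the marker genes were named after their values were seen. For 8 alternatives the closing section gives the effect.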

Additional observations from a re-analysis of the deposited data

How the results depend on the processing

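The 27 differences of single members were recomputed under 8 alternatives, and no called one changed sign. Over all settings, suspended minus adherent ran from -1.89 to -1.78 for KRT80, from -1.23 to -0.82 for KRT9, from -1.11 to -0.59 for KRT14 and from -1.38 to -0.56 for KRT8. The 2 members at least 2-fold lower became 1 with the background left in, with neqc offset 50 and with the authors' deposited values, 3 under cyclic loess, and 4 with detection at a p-value under 0.05 and without a detection filter. Under the first 3 of these settings the 4 members at least 1.5-fold lower in suspended than in adherent cells became 3, the 3 that were 1.5-fold higher after reattachment than in suspension became 2 (4 under the last 2 settings), and the members at least 1.5-fold lower in reattached than in adherent cells became 1 in place of 2.

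Counts of all genes at 2-fold moved more. In suspended minus adherent, 55 genes were higher in the main setting, 90 under median scaling, 32 with the background left in, 32 with offset 50 and 30 with the authors' values, and 72 were lower, against 37, 38 and 37 in the last 3 settings. In reattached minus suspended, 22 were higher, against 12, 11, 11 and 9 in the same 4 settings, and 12 lower, against 30 under median scaling and 7 with the authors' values. In reattached minus adherent, 4 were higher, against 2 under median scaling, 2 under cyclic loess and 1 in each of the settings with background left in, offset 50 and the authors' values, and 11 lower, against 5, 5 and 4 in those settings, 18 with detection under 0.05 and 20 without a filter. Median scaling moved the median of all genes to 0.10 in suspended minus adherent and to -0.12 in reattached minus suspended. Under detection at 0.05 and without a filter, which admit more genes, the type II keratin median was -0.71 and -0.0093 in suspended minus adherent (main -0.37, 1 gene), and the type I median in reattached minus suspended was -0.14 at 0.05 (main 0.09). Background left in and offset 50 shrink dim differences by construction. The cause of the other shifts was not tested.

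No paired analysis was possible because each state had 1 array. Signal over background limits KRT8, KRT14 and KRT9, whose signals were at most 2.80 times the median of undetected probes, and the number of arrays limits every value.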
